A study of Mus musculus with 35 samples.

Results

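Genes that are textbook markers of red cell precursors or of megakaryocytes and platelets were followed through sorted mouse immune cells. They are Slc4a1, Klf1, Epor, Car1, Car2, Alas2, Pf4 and Itga2b. They were chosen by symbol, with earlier results of these data known. All 8 were found among 18193 genes of the array, on 10 probe sets. The samples were 35 Affymetrix Mouse430_2 arrays of total RNA from flow-sorted cells of male C57BL/6J mice, 8 weeks old, with no treatment named in the labels. Bone marrow gave 2 arrays of inflammatory monocytes, 2 of SatM (a monocyte type that the labels link to fibrosis), 4 of cMoP (common monocyte progenitors), 4 of SMP (labelled as the progenitor of SatM), 1 of GMP (granulocyte-monocyte progenitors) and 1 of MDP (monocyte, macrophage and dendritic cell progenitors). Of the SMP and cMoP arrays, 2 each carry WT in their titles, and these are called SMP WT 1 and 2 and cMoP WT 1 and 2 here. Spleen gave 2 arrays each of basophils, eosinophils and neutrophils. A tissue panel of 15 arrays held 1 array per sort and tissue: resident macrophages (titled M2-like in spleen and marrow), SatM, F4/80- Mac1+ Ly6C- cells negative for both Msr1 and Ceacam1, cells dull for both, and other Ly6C- cells, the last 3 labelled as monocytes. They came from spleen, marrow, blood or lung (titled BAL).

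Red cell precursors respond to erythropoietin through its receptor Epor. The transcription factors Gata1 and Klf1 then switch on genes of heme synthesis (Alas2, the erythroid first enzyme of the pathway), of the red cell membrane (Slc4a1, the band 3 anion exchanger) and of carbon dioxide handling (the carbonic anhydrases Car1 and Car2). Megakaryocytes share Gata1 with the red cell line and are known for Itga2b, the alpha IIb chain of the fibrinogen receptor of platelets, and for Pf4, a chemokine stored in platelet granules. Gata1 is also used by basophils, eosinophils and mast cells, which is why these sorts are compared below with neutrophils and monocyte progenitors.

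The RefSeq promoter table (GRCm38.p6) held 5 of the 8 genes: Alas2, Epor, Klf1, Itga2b and Pf4. The 250 bases before each start were searched on both strands for a GATA motif (AGATAA or AGATAG or TGATAA or TGATAG) and for a CACCC box, the kind of site that Klf1 binds (CCACACCC or CCCCACCC or CCGCACCC or CCTCACCC). The GATA letters were found before Alas2, Epor and Klf1, 86, 54 and 80 bases before the start, and in 26.5% of all 32851 promoter windows of that length. The CACCC letters were found 124 bases before Epor and, as 2 overlapping matches on the other strand, 40 and 35 bases before Alas2, and in 14.9% of all windows. Neither set of letters was found in the windows of Itga2b and Pf4, which says only that these letters are not there. The 3 promoters with a match are shown so that the letters found can be seen, although the levels of these 3 genes below differ in pattern. Each is the 130 bases before the start, written along the gene's strand, with the matches in capitals: chrX:150547287-150547416 on the plus strand, chr9:21963577-21963706 on the minus strand and chr8:84901852-84901981 on the plus strand.
Alas2: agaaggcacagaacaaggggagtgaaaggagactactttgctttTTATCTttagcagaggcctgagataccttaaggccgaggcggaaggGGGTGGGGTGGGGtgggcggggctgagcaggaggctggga
Epor: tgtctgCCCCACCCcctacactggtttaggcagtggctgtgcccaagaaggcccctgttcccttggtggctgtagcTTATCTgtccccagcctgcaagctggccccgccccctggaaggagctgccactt
Klf1: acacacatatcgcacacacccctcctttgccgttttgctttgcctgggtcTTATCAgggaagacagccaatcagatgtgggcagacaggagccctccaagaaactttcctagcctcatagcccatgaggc

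All levels are the deposited log2 values of the probe set with the highest mean, and all arrays share a lowest value of 2.30, called the floor. A level within 0.01 of it has no order. Differences were tested in limma, with p-values adjusted over all genes tested by the method of Benjamini and Hochberg. A gene counts as called where that adjusted p is under 0.05 and the log2 difference is at least 1 in size. The median of an array was 2.31 to 2.39 and its upper quartile 6.09 to 6.56. Precision is set by how many arrays a group has. The labels do not say whether replicate arrays came from separate animals, so the tests measure the spread between these arrays, which may be technical. In sorted bulk samples, fewer cells of a type and less RNA per cell cannot be told apart.

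The basophil and mast cell markers set the SMP sort beside basophils and apart from cMoP. All 9 measured basophil and mast cell markers lay over the array's upper quartile on the 4 SMP arrays, as on both basophil arrays, and their summed log2 level was 114.3 to 117.5 in SMP against 116.3 and 116.9 in basophils. In cMoP 1 of the 9 passed, with sums of 28.3 to 30.3. Of the 5 progenitor markers, 1 or 2 passed in SMP against 3 in cMoP. That list did not separate progenitors from mature sorts, as 3 passed in eosinophils, 2 in basophils and 1 in neutrophils. GMP, MDP and both eosinophil arrays held 6 of the 9 basophil and mast cell markers each, with sums of 73.4, 67.6 and 66.6 to 68.3. Of 7 eosinophil markers, 4 passed in GMP, 3 in MDP and 4 or 5 in SMP, with sums of 45.7, 48.1 and 42.9 to 55.8, against 0 in cMoP, with sums of 16.5 to 19.3. The part of basophil, mast cell or eosinophil RNA in the SMP, GMP and MDP results was not tested. Eosinophils had 6 or 7 of 7 eosinophil markers and neutrophils 7 of 7 measured neutrophil markers, which both basophil arrays also held, with sums of 80.8 and 85.5 against 98.3 and 99.3. SMP WT 1 held all 7 as well, with a sum of 75.1, against 4 or 5 and sums of 51.2 to 55.2 on the other 3 SMP arrays. The neutrophil arrays themselves read 2.34 and 3.28 for Slc4a1 and the floor value for Car1. The part of neutrophil RNA in the values of SMP WT 1, the highest Slc4a1 and Car1 of the SMP arrays among them, was not tested. Both eosinophil arrays held 5 of 7 neutrophil, 4 of 8 iron-recycling macrophage and 3 of 5 measured monocyte markers. Both basophil arrays held 5 of 5 measured monocyte markers. The part of other cell types in the eosinophil and basophil levels was not tested.

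Slc4a1, the most abundant anion exchanger of the red cell membrane (chromosome 11, 102348820 to 102365281, GRCm38.p6), was high in the SMP, basophil and eosinophil sorts and near the floor elsewhere in the first set. Its log2 level was 9.25 and 8.35 in SMP 1 and 2, and 10.15 and 5.45 in SMP WT 1 and 2, against 3.75, 2.33, 2.90 and 2.31 in the same order of cMoP arrays. Every SMP array lay over every cMoP array, with means of 8.30 ± 2.04 and 2.82 ± 0.68 (SD, n = 4 each). Basophils reached 11.40 and 9.57, eosinophils 8.44 and 8.34, and neutrophils only 2.34 and 3.28. The MDP array stood at 3.50, the GMP array at the floor, and the SatM and inflammatory monocyte arrays at 2.36 or below. The order of means was therefore basophils, eosinophils, SMP and then all others. Basophils lay over eosinophils without overlap, while SMP overlapped basophils and spanned eosinophils. Of the 3 probe sets of the gene, the one used here is of the x type, which can pick up related transcripts. Another followed it, with 5.53 to 9.11 in SMP and 8.15 and 9.58 in basophils, and the last never rose above 2.95.

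Alas2, the erythroid enzyme of the first step of heme synthesis (chromosome X, 150547417 to 150570622), was detected in the same 3 sorts and in no other sort of the first set beyond 2.41. SMP 1 and 2 gave 7.15 and 4.77, and SMP WT 1 and 2 gave 4.27 and the floor value, so 1 of the 4 SMP arrays did not differ from cMoP. Basophils gave 7.73 and 5.04 and eosinophils 5.12 and 4.66. Neutrophils, GMP, MDP, SatM and inflammatory monocytes were all at the floor.

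Klf1, the erythroid Krüppel-like factor (chromosome 8, 84901982 to 84905291), was over the floor on few arrays. It stood at 7.27 and 4.85 in basophils, at 4.05, 2.61 and 2.85 on 3 of the SMP arrays and at 2.94 on 1 eosinophil array. All cMoP, GMP, MDP, neutrophil, SatM and inflammatory monocyte arrays of the first set were at the floor. Both basophil arrays lay over all SMP and eosinophil arrays.

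Epor, the erythropoietin receptor (chromosome 9, 21958897 to 21963576), was at the floor on 30 of 35 arrays. In the first set only basophils 1 and 2 left it, at 3.51 and 2.32. It did not pass the filter there (at least 2 arrays over their array's median) and has no test in that set.

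The 2 carbonic anhydrases lie side by side on chromosome 3 (Car1 at 14766214 to 14808365, Car2 at 14886269 to 14900770) and both speed the exchange of carbon dioxide and bicarbonate. Car1 was highest in the GMP array at 7.07, followed by basophils at 6.44 and 5.40, MDP at 5.86, eosinophils at 3.87 and 4.53 and SMP at 3.01, 3.24, 4.74 and 2.68. Eosinophils and SMP overlap, as do MDP and basophils, while cMoP, neutrophils, SatM and inflammatory monocytes were at the floor. Car2 was present in the same sorts: basophils gave 10.87 and 9.98, SMP 9.92, 6.20, 8.62 and 8.33 (in the order 1, 2, WT 1, WT 2), GMP 8.46, eosinophils 8.18 and 7.67, and MDP 7.47. These 5 sorts did not overlap with cMoP (3.09 to 4.21), neutrophils (3.84 and 3.29), SatM (3.09 and 3.29) or inflammatory monocytes (3.09 on both arrays). Within the 5, the order after basophils cannot be read, since the SMP arrays span GMP, eosinophils and MDP.

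Itga2b, the alpha IIb integrin chain (chromosome 11, 102453297 to 102469883), separated the sorts most sharply. It stood at 11.15, 11.30, 10.95 and 10.92 on the 4 SMP arrays, at 10.95 and 11.22 in basophils and at 9.80 and 11.00 in eosinophils. GMP followed at 6.25. MDP stood at 3.68, cMoP at 3.21 to 3.67, neutrophils at 4.39 and 3.67, and the marrow SatM and inflammatory monocyte arrays at 3.47 to 3.62, close to the lowest value of this probe set, 3.21. SMP, basophils and eosinophils overlapped, and GMP lay between them and all others.

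Pf4, the platelet chemokine (chromosome 5, 90772435 to 90773383), did not follow Itga2b. It was high in eosinophils at 8.40 and 9.77 and in GMP at 8.18, and lower in MDP at 5.53. Basophils gave 4.86 and the floor value, neutrophils the floor value and 3.12, and SMP the floor value on 3 arrays and 2.91 on SMP 2. All cMoP, SatM and inflammatory monocyte arrays of the first set were at the floor. The plot of levels by cell type shows these patterns array by array.

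**Figure D1:**
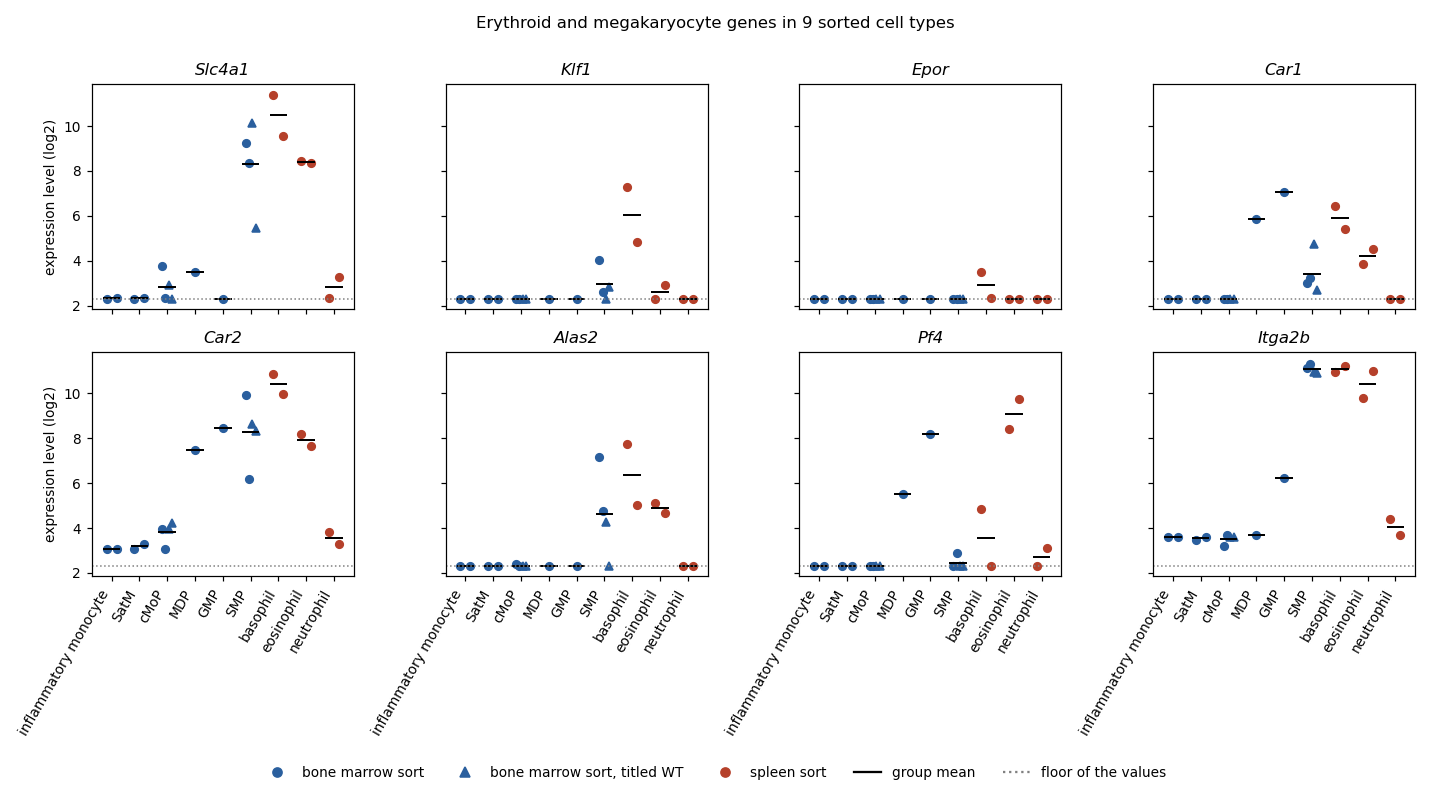
Each point is the log2 level of 1 array in 9 sorted cell types, with the group mean as a bar and the floor of 2.30 as a dotted line. Itga2b lies between 9.80 and 11.30 in SMP, basophils and eosinophils. Pf4 is high in eosinophils and GMP, lower in MDP and at 2.91 or below in SMP.

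All comparisons with cMoP share those 4 arrays, both granulocyte comparisons share the neutrophils, and their values are set side by side only. SMP were compared with cMoP to ask how the 2 labelled monocyte progenitors differ. Of the 7 members tested, 5 were higher in SMP and none lower, beside 35.5% of the 12077 genes tested that were called in either direction. Klf1, Car1 and Pf4, at the floor on all cMoP arrays, could not have been called lower. Neither could Alas2 and Slc4a1, whose cMoP means of 2.33 and 2.82 lie less than 1 over the floor. Itga2b was higher by 7.55 on the log2 scale (SE 0.27, adjusted p = 5.5e-10), Slc4a1 by 5.48 (SE 0.79, adjusted p = 0.000113) and Car2 by 4.45 (SE 0.60, adjusted p = 5.86e-05). Alas2 was higher by 2.30 (SE 0.70, adjusted p = 0.0172), and Car1 by 1.12 (SE 0.37, adjusted p = 0.0237), which is at least 2.17-fold against cMoP arrays that are all at the floor. Klf1 (0.66, 95% interval -0.29 to 1.60) and Pf4 (0.15, interval -0.83 to 1.14) did not pass. The median difference of the 7 was 2.30, beside -0.09 for all genes tested.
The calls of Itga2b, Slc4a1 and Car2 held on leaving out any 1 array, and those of Alas2 and Car1 did not. Without SMP 1, Alas2 stood at 1.45 (adjusted p = 0.0608), and without SMP WT 1, Car1 stood at 0.68, under the fold threshold. The difference between SMP and cMoP was not shown to depend on the title set for any member: the test of that interaction gave 2.62 for Alas2 (adjusted p = 0.393) and 0.57 for Slc4a1 (adjusted p = 0.973), while it called 211 of the 12077 genes.

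Of 12 erythroid regulators, all tested, 4 were higher and 1 lower in SMP. Gata2, a GATA factor of stem cells, basophils and mast cells, was higher by 11.02 (SE 0.27), Gata1 by 6.10 (SE 0.36) and its partner Tal1 by 5.15 (SE 0.38), while Bcl11a, a repressor of embryonic globin genes, was lower by 5.84 (log2 difference -5.84, SE 0.50). Gfi1b, a repressor needed by both red cell and megakaryocyte lines, was higher by 5.04 (adjusted p = 1.7e-08). Among genes of erythropoietin receptor signalling, 4 of 9 tested were higher and none lower, led by Cish at 5.41 and Socs2, both inhibitors that many cytokine receptors induce through Stat5, and by the kinase Jak2 at 2.05. Epor itself was at the floor on all SMP and cMoP arrays.
The heme synthesis and iron import list had 1 of 12 tested higher (Ppox, 1.38) and 3 lower: Tfrc, the transferrin receptor, at -2.33, the last enzyme Fech at -1.55 and Cpox at -1.17. The list median was 0.20, beside -0.09 for all genes. Of 16 tested red cell membrane and globin genes, 2 were higher (Hbb-b2 at 2.89 and Ermap at 1.86) and 1 lower (Gypc at -1.72). Among 14 tested megakaryocyte and platelet genes, 6 were higher and none lower: Rab27b, a granule transport protein, at 4.98, the collagen receptor chain Itga2 at 3.66, the Itga2b partner Itgb3 at 2.19 and Clec1b at 2.15 lead them. Ppbp, a platelet chemokine like Pf4, gave 0.50 (adjusted p = 0.616). Of the other carbonic anhydrases 0 of 7 tested were higher and 1 was lower (Car13, -1.18), and of the other anion exchangers 0 of 2 tested were called.

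Basophils were compared with neutrophils, both sorted from spleen. Here 6 of the 7 members tested were higher in basophils and none lower, beside 37.4% of all genes called. Alas2, Klf1 and Car1, at the floor on both neutrophil arrays, could not have been called lower. The same holds for Slc4a1 and Pf4, whose neutrophil means of 2.81 and 2.71 lie less than 1 over the floor. Slc4a1 was higher by 7.67 (SE 1.12, adjusted p = 0.000135), Itga2b by 7.05 (SE 0.38, adjusted p = 2.07e-08) and Car2 by 6.86 (SE 0.84, adjusted p = 3.19e-05). For Alas2, Klf1 and Car1 the neutrophil arrays were all at the floor, and the differences are lower bounds: 4.09 or at least 17.0-fold (adjusted p = 0.00503), 3.76 or at least 13.6-fold (adjusted p = 0.00032) and 3.62 or at least 12.3-fold (adjusted p = 0.000106). In each of the 6 both basophil arrays lay over both neutrophil arrays, as they did in Epor (means of 2.92 and 2.30). The share of all genes without overlap was not counted, so this is a description of each gene. Pf4 (0.87, interval -0.52 to 2.26) did not pass. Basophil array 1 stood over basophil array 2 in Slc4a1, Klf1, Epor, Car1, Car2, Alas2 and Pf4, and under it in Itga2b. Without basophil array 1, Alas2 fell to 2.74 (adjusted p = 0.0664), and without array 2, Pf4 was called at 2.16 (adjusted p = 0.00545).

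Red cell membrane and globin genes moved with the members here: 12 of 16 tested were higher in basophils and none lower. Ermap, an erythroid adhesion protein, was higher by 5.52, Gypc (glycophorin C) by 4.95, the blood group protease Kel by 4.65 and Hbb-b2 (adult beta globin) by 4.50. Of the heme and iron list, 6 of 12 were higher, led by Cpox at 5.62, Alad at 4.78 and the mitochondrial carrier Abcb10 at 3.96, and 3 were lower. Of the erythroid regulators, 6 of 12 were higher and 1 lower, with Gata2 at 8.58, Cbfa2t3 at 8.18, Gata1 at 7.23 and Gfi1b at 4.58. Megakaryocyte and platelet genes went both ways, with 2 of 14 higher (Rab27b, 5.02, among them) and 4 lower, among them Clec1b at -5.52, the platelet glycoprotein chain Gp1bb at -4.52 and P-selectin (Selp) at -4.44. Itgb3 was lower by 1.14 on this scale (log2 difference -1.14, adjusted p = 0.0192). The erythropoietin receptor list had 1 of 9 higher and 2 lower, the carbonic anhydrases 1 of 7 higher (Car9, 4.12), and the anion exchangers 0 of 2 called.

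Eosinophils differed from neutrophils in the same number of members, 6 of 7, all higher, beside 40.5% of all genes called. Here too Alas2, Klf1 and Car1, at the floor in neutrophils, and Slc4a1 and Pf4, less than 1 over it there, could not have been called lower. Pf4 was higher by 6.38 (SE 0.64, adjusted p = 5.97e-06), Itga2b by 6.37 (SE 0.38, adjusted p = 6.19e-08), Slc4a1 by 5.58 (SE 1.12, adjusted p = 0.00138) and Car2 by 4.36 (SE 0.84, adjusted p = 0.00105). Car1 was higher by 1.90, at least 3.74-fold (adjusted p = 0.00903), and Alas2 by 2.59, at least 6.04-fold (adjusted p = 0.0495). The Alas2 call is at the edge of the threshold and was lost in 8 of the alternatives, with adjusted p from 0.0506 to 0.172 there. Without eosinophil array 2, Car1 was lost too (1.57, adjusted p = 0.0806). Klf1 (0.32, interval -1.02 to 1.66) did not pass.
Of the erythroid regulators, 5 of 12 were higher and 2 lower, with Gata1 at 8.61, Cbfa2t3 at 5.88 and Gfi1b at 3.81. The heme and iron list had 5 of 12 higher (Abcb10 4.78, Cpox 4.27, Alad 3.45 and Tfrc 3.31) and 1 lower, and the red cell membrane and globin list 3 of 16 higher and 1 lower. The lower call of the red cell list was Hba-a2 (-4.0), whose probe set did not follow the beta globin. Of the megakaryocyte and platelet genes 2 of 14 were higher, among them von Willebrand factor (Vwf) at 1.86, and 4 lower. Itgb3 (0.89, adjusted p = 0.0554) and Ppbp (2.37, adjusted p = 0.0748) did not pass. Car9 (4.66) was the 1 of 7 carbonic anhydrases called, 0 of 2 anion exchangers were, and the erythropoietin receptor list had 0 of 9 higher and 2 lower.

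Set directly against each other, eosinophils and basophils differed in 4 of 7 members, beside 20.6% of all genes. Pf4 was higher in eosinophils by 5.51 (SE 0.64, adjusted p = 6.37e-05). Klf1 (-3.44, SE 0.62, adjusted p = 0.00146), Car2 (-2.50, SE 0.84, adjusted p = 0.0491) and Car1 (-1.72, SE 0.52, adjusted p = 0.0291) were lower in eosinophils. Slc4a1 (-2.09, interval -4.53 to 0.35), Alas2 (-1.49, interval -3.65 to 0.66) and Itga2b (-0.68, interval -1.52 to 0.15) did not pass, and these intervals do not show that the sorts are alike. Leaving out any 1 of the 4 arrays ended the Car2 call, at -2.06 to -2.94 (adjusted p from 0.0903 to 0.24). The Car1 call was lost without basophil 1 (-1.20, adjusted p = 0.224), eosinophil 1 (-1.39, adjusted p = 0.163) or eosinophil 2 (-2.05, adjusted p = 0.0568), and held without basophil 2 (-2.24, adjusted p = 0.0272). Without basophil 1 Klf1 stood at -2.23 and kept its call, and without eosinophil 2 Itga2b was called at -1.28 (adjusted p = 0.0452). Red cell membrane and globin genes were lower in eosinophils for 7 of 16 tested and higher for 0, led by Kel at -4.39. Hba-a2 (-3.3) was among them, by a probe set that did not follow the beta globin.

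SMP and basophils were close in Itga2b (0.00, interval -0.72 to 0.72) although they come from marrow and spleen, and tissue and cell type cannot be told apart in that comparison. Klf1 (-3.11, SE 0.53, adjusted p = 0.00378) and Car1 (-2.50, SE 0.45, adjusted p = 0.00443) were lower in SMP, 2 of the 7 members, beside 11.5% of all genes. Car2 (-2.15, adjusted p = 0.069), Slc4a1 (-2.18, adjusted p = 0.16), Alas2 (-1.76, adjusted p = 0.202) and Pf4 (-1.13, adjusted p = 0.204) did not pass. The calls hang on single arrays: 4 members were called without SMP 1, 3 without SMP WT 1 (Slc4a1 at -2.80) or without basophil 2 (Pf4 at -2.41), and 1 without basophil 1, where Klf1 stood at -1.90 and Car1 lost its call. When only these 2 sorts were fitted, limma called 0 members and 41 genes, with 2241 genes at an unadjusted p under 0.05. Of the lists, the red cell membrane and globin genes (7 of 16) and the heme and iron genes (5 of 12) held calls lower in SMP and none higher, with Ermap at -3.80, Kel at -3.55, Ank1 (ankyrin 1, which anchors band 3 to the cytoskeleton) at -3.10 and Fech at -2.45. The erythroid regulators had no call among 12.

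The step from SMP to marrow SatM, the pair that the labels give as progenitor and product, went with lower levels in 3 of 7 members and higher in none, beside 28.6% of all genes. Klf1, Car1, Alas2 and Pf4, at the floor on both SatM arrays, could not have been called higher. With SatM means of 2.33 and 3.19, less than 1 over the floor, Slc4a1 and Car2 could not either. Itga2b was lower by 7.53 on the log2 scale (difference -7.53, SE 0.33, adjusted p = 3.3e-09), Slc4a1 gave -5.97 (SE 0.97, adjusted p = 0.000377) and Car2 gave -5.08 (SE 0.73, adjusted p = 0.000132). Alas2 (-2.32, adjusted p = 0.055) and Car1 (-1.12, adjusted p = 0.074) did not pass, although both SatM arrays were at the floor, and both were called without SMP WT 2 (5 members in all). Of the erythroid regulators, 5 of 12 were lower, with Gata2 at -11.30, Tal1 at -7.47, Gata1 at -6.06 and Gfi1b at -5.22, and 1 was higher.

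GMP and MDP were each measured on 1 array and set against the 4 cMoP arrays, so the test assumes that the single array varies like the other groups. In both comparisons Klf1, Car1 and Pf4, at the floor on all cMoP arrays, could not have been called lower. Slc4a1 and Alas2, with cMoP means of 2.82 and 2.33, less than 1 over the floor, could not either. In GMP 4 of 7 members were higher and none lower, beside 7.63% of all genes called. Pf4 was higher by 5.89 (SE 0.72, adjusted p = 0.000161, at least 59.2-fold), Car1 by 4.77 (SE 0.58, adjusted p = 0.000157, at least 27.3-fold), Car2 by 4.65 (SE 0.94, adjusted p = 0.00741) and Itga2b by 2.72 (SE 0.43, adjusted p = 0.00128). The erythroid members Slc4a1 (-0.53), Klf1 and Alas2 did not pass, and GMP was at the floor in all 3. The 16 tested red cell membrane and globin genes held 0 calls. Of the erythroid regulators 3 of 12 were higher (Gata2 5.96, Tal1 3.46, Gata1 2.11) and 1 lower, and of the megakaryocyte and platelet genes 0 of 14 were higher and 1 was lower (Itgb3, -1.42). Car3, a muscle-type carbonic anhydrase, was higher by 4.72.

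In MDP, 2 of 7 members were higher than in cMoP, beside 2.53% of all genes: Car1 by 3.57 (SE 0.58, adjusted p = 0.00407, at least 11.8-fold) and Pf4 by 3.23 (SE 0.72, adjusted p = 0.0288, at least 9.40-fold). Car2 gave 3.66 (SE 0.94, adjusted p = 0.0642) and Itga2b 0.15 (interval -0.78 to 1.08). The Pf4 call was lost without cMoP 1 (adjusted p = 0.0526) or without cMoP 2 (adjusted p = 0.0511). With only these 2 sorts in the fit, Car1 and Pf4 did not pass the filter and were not tested, here as in GMP minus cMoP. Gata2 (5.18) was the 1 call among 12 erythroid regulators, and Car3 was higher by 3.38.

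**Figure D2:**
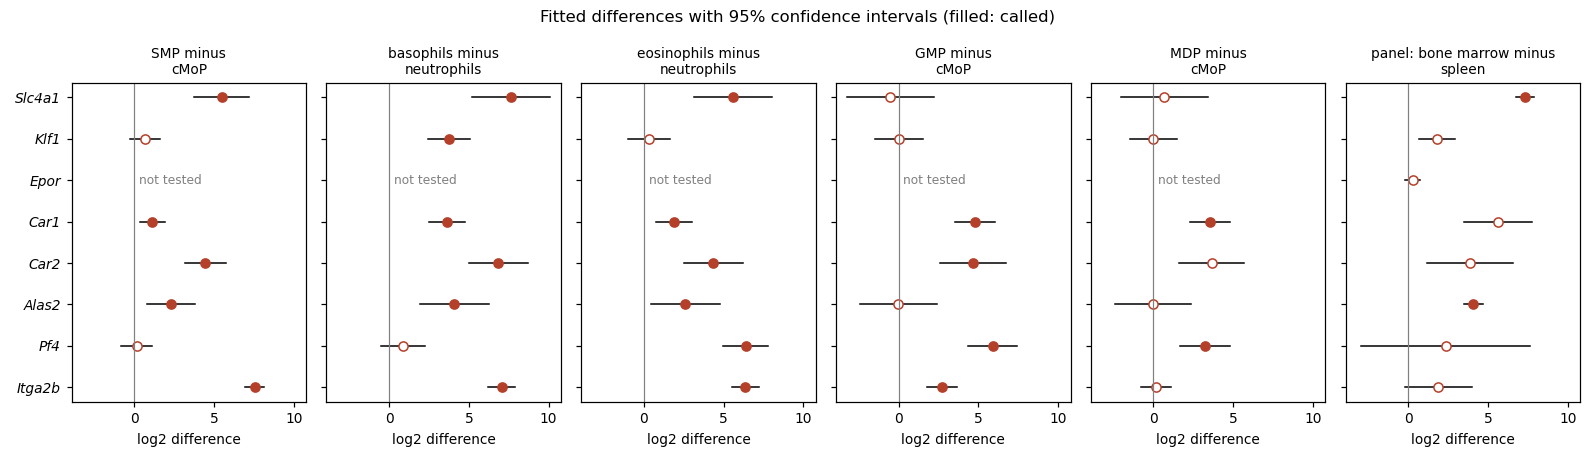
Points are fitted log2 differences of the members in 6 comparisons, with 95% confidence intervals as lines and filled points for calls. Itga2b, Slc4a1 and Car2 are called in SMP against cMoP and in both spleen granulocytes against neutrophils, while GMP against cMoP shows calls of Pf4, Car1, Car2 and Itga2b and MDP against cMoP of Car1 and Pf4.

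The tissue panel showed these genes in marrow sorts of quite different cells. Slc4a1 was 11.76 in marrow M2-like macrophages, 9.95 in marrow Msr1- Ceacam1- cells, 9.39 in marrow SatM and 8.81 in the marrow cells dull for both markers. On the 11 arrays from spleen, blood and lung it was at most 2.33, except for 4.26 in the spleen M2-like macrophages. All 4 marrow arrays thus lay over all other panel arrays, and the 3 sorts measured in both tissues were higher in marrow than in spleen. The log2 difference was 7.50 in M2-like macrophages, and at least 7.10 in SatM and at least 7.65 in Msr1- Ceacam1- cells, whose spleen arrays are at the floor. Alas2 had the same form: 9.40, 6.87, 6.22 and 7.04 in those 4 marrow arrays, 5.90 in spleen M2-like macrophages, and the floor value on the other 10 arrays.

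The fit over the 15 arrays, with terms for sort and tissue, called only 11 of 11732 genes between marrow and spleen (0.0938%), and 2 of the 8 members were among them, both higher in marrow. Slc4a1 was higher by 7.34 (SE 0.24, adjusted p = 2.04e-05) and Alas2 by 4.08 (SE 0.25, adjusted p = 0.000856). Outside marrow nearly all panel arrays are at or near the floor in both genes, where values cannot spread. These SEs and p-values may thus overstate the precision of the differences. The other 6 genes higher in marrow were Apol11b (6.01), Hemgn (6.82), Ces2g (4.75), Aqp1 (4.54), Ctse (4.50) and Kif18a (2.09), and the 3 lower were Cr2 (-4.36), Cd8a (-3.89) and Hsph1 (-1.99). Hemgn is a nuclear protein of red cell precursors, Aqp1 is the red cell water channel, Cr2 and Cd8a are known from lymphocytes. These genes were named because the whole list of calls is short. Both member calls held on leaving out any 1 spleen or marrow array.

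Car1 was 9.96, 7.97 and 7.72 in marrow M2-like macrophages, SatM and Msr1- Ceacam1- cells and 2.38 in the marrow dull cells, with all 11 other panel arrays at the floor. Its fitted difference of 5.65 (SE 0.93) did not pass after adjustment (adjusted p = 0.188), but was called at 6.21 without the marrow dull array (adjusted p = 0.00339). Klf1 left the floor on the same 3 marrow arrays, at 6.02, 3.33 and 3.57, and on no other panel array (1.81, SE 0.48, adjusted p = 0.239). The 3 paired sorts were thus all higher in marrow for Slc4a1, Alas2, Car1, Klf1 and Car2. For Car1 and Klf1 the paired spleen arrays were all at the floor, so marrow could not have been lower. The share of all genes higher in marrow in all 3 sorts was not counted.

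In the panel, Car2 was high outside marrow in monocyte-labelled sorts of spleen, blood and lung. The Msr1- Ceacam1- cells gave 12.35 in marrow, 10.34 in blood and 9.71 in spleen, and the lung dull cells 8.80. M2-like macrophages gave 11.74 in marrow and 7.14 in spleen, marrow SatM 9.61 and marrow dull cells 7.48. The 7 other arrays (SatM of spleen, blood and lung, other Ly6C- cells, and lung macrophages) lay between 3.09 and 3.44. In the Msr1- Ceacam1- sorts of marrow and blood 5 of 5 measured NK cell markers, and in that of spleen 4, lay over the array's upper quartile. The spleen sort also held 5 of 5 T cell, 3 of 6 B cell and 3 of 9 basophil and mast cell markers, and the marrow sort 3 of 5 T cell markers. Of the NK cell markers, the lung dull cells held 1, and the M2-like macrophages, marrow SatM and marrow dull cells 0. The part of any cell type in the Car2 levels was not tested.

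Epor was over the floor by more than a trace only in M2-like macrophages, at 7.04 in marrow and 6.08 in spleen. The lung macrophages titled MP gave 2.72. Both M2-like arrays held all 8 iron-recycling macrophage markers over the upper quartile, with summed levels of 111.0 and 109.1 against 21.6 to 65.5 on the other 13 panel arrays. The marrow M2-like array and basophil array 1 were the arrays with all 8 members over the floor. The marrow M2-like array also held 5 of 9 measured red cell markers, 5 of 9 basophil and mast cell markers and 8.05 of Itga2b, so this single library carries markers of several cell types at once.

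Itga2b in the panel was high in 2 marrow arrays, at 8.45 in the dull cells and 8.05 in M2-like macrophages, and between 3.57 and 4.14 elsewhere. The marrow dull cells held 5 of 7 eosinophil markers, with a sum of 62.6 against 82.1 and 85.7 in eosinophils, and a Gata1 level of 8.73. They also held 5 of 5 monocyte, 5 of 7 neutrophil, 4 of 9 basophil and mast cell, 4 of 8 iron-recycling macrophage and 3 of 5 progenitor markers. This library too carries markers of several cell types. Pf4 was scattered over tissues: 11.52 in marrow M2-like macrophages, 9.08 in the F4/80+ lung macrophages, 8.63, 7.13 and 4.58 in SatM of spleen, marrow and lung, 2.51 in spleen M2-like macrophages, and 2.32 or less on the other 9 arrays. Between blood and spleen none of the 8 members was called in limma, beside 0.0341% of all genes called. There 1548 of 11732 genes had an unadjusted p under 0.05. No paired sort was higher in blood by 1 or more. Pf4 in SatM was lower in blood, at 2.32 against 8.63 in spleen (-6.31), while the fitted Pf4 difference was -0.99 (SE 2.36).

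**Figure D3:**
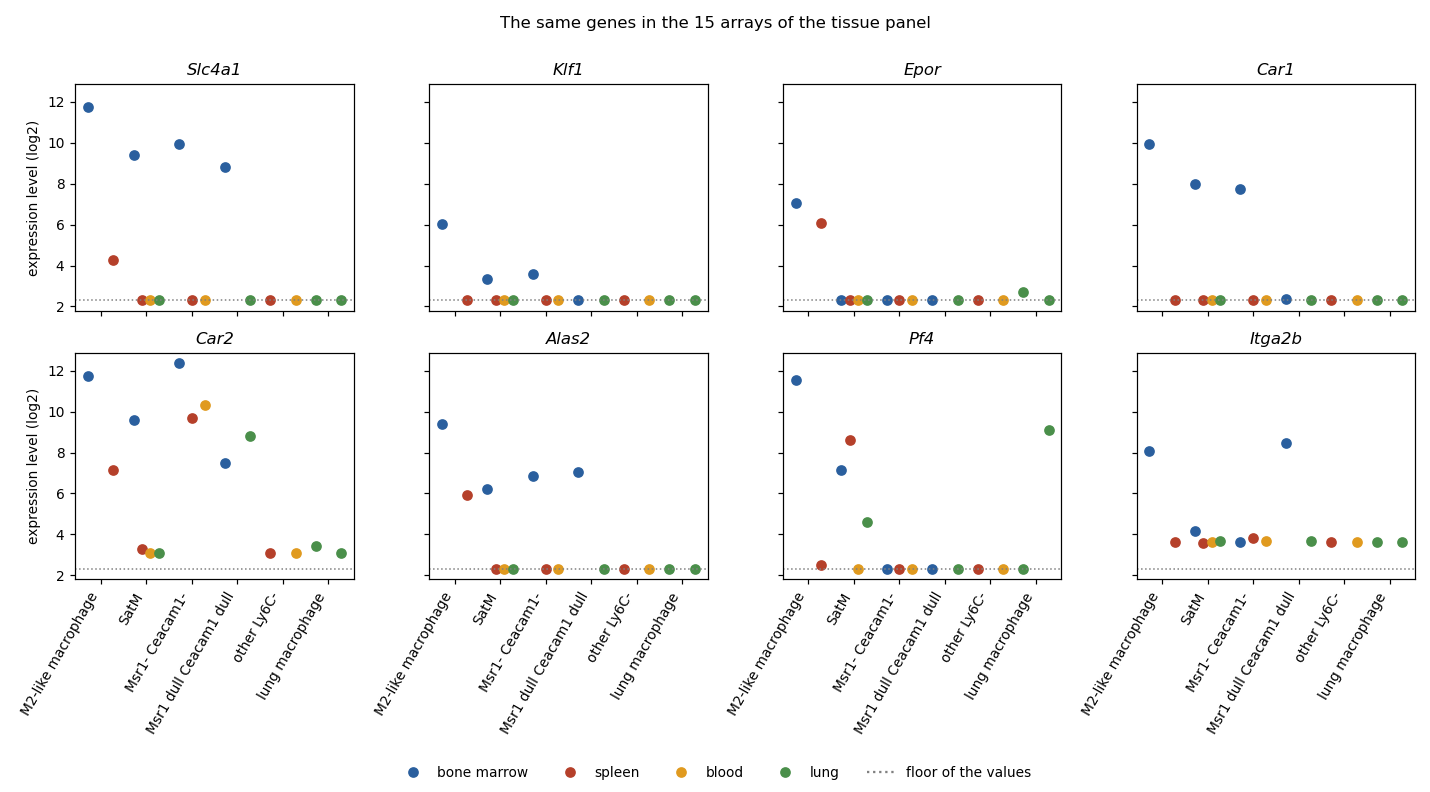
Each point is the log2 level of 1 panel array, by sort on the x axis and by tissue in colour, with the floor of 2.30 as a dotted line. In the lung macrophage column the left point is the array titled MP and the right one the F4/80+ array. Slc4a1 and Alas2 are high on all 4 marrow arrays, while Car2 is also high in Msr1- Ceacam1- cells of spleen and blood.

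Marrow SatM were sorted in both sets, and the 2 sets did not match in these genes. The panel array gave 9.39 for Slc4a1, 9.61 for Car2, 7.97 for Car1, 7.13 for Pf4 and 6.22 for Alas2, while the 2 arrays of the first set had means of 2.33 and 3.19 for Slc4a1 and Car2 and were at the floor for Car1, Pf4 and Alas2. The summed level of the red cell markers was 41.9 on the panel array and 32.6 and 33.4 on the other 2. This single panel array therefore does not stand for SatM of the first set, and the tissue fit held its 2 member calls without it.

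Of the members, Slc4a1 and Alas2 went most closely with adult beta globin. The brighter of the 2 probe sets of Hbb-b2, an adult beta globin, stood at 10.01, 6.36, 8.36 and 7.30 on SMP 1, SMP 2, SMP WT 1 and SMP WT 2, at 11.38 and 10.03 in basophils and at 9.67 and 9.18 in eosinophils. It was 5.85 and 6.55 in neutrophils, 2.87 in GMP, 4.86 in MDP, and 3.34 to 4.25 in cMoP apart from 8.86 on cMoP 1, the array that also had the highest Slc4a1 of its group. The 4 marrow panel arrays gave 9.31 to 10.41 and the spleen M2-like macrophages 9.82, against 5.87 or less on the other 10. Over the 24 profiles (9 cell type means and 15 panel arrays), Pearson's r with Hbb-b2 was 0.87 for Slc4a1 and for Alas2. It was 0.63 for Klf1, 0.61 for Car2, 0.59 for Itga2b, 0.54 for Car1, 0.45 for Epor and 0.10 for Pf4. The megakaryocyte gene Itga2b thus lay over the erythroid genes Car1 and Epor. The other Hbb-b2 probe set stayed at 3.02 or below. Several profiles share a tissue, and the values of r are descriptions.

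Markers of whole red cells and platelets were counted beside this. Of 15 red cell markers, 9 were measured, and their summed log2 level was 45.3 and 53.3 in basophils, 31.5 to 43.4 in SMP, 31.9 and 35.3 in eosinophils, 32.5 and 33.1 in neutrophils, 30.1 to 35.8 in cMoP, 29.8 in GMP and 32.5 in MDP. Hba-a1 was at the floor on all 35 arrays. A probe set of Hba-a2 read 8.95 to 11.70 on all first-set arrays but the eosinophils (6.82 and 6.01). These 2 probe sets do not follow the beta globin, yet both count in the sums above. There the Hba-a2 probe set puts eosinophils under neutrophils (10.48 and 10.35), so the sums of these sorts do not show their globin levels. The 3 alpha globin probe sets that match both Hba-a1 and Hba-a2, left out of the gene table for that reason, do follow the beta globin. The brightest of them read 14.44 and 12.77 in basophils, 12.09 and 11.52 in eosinophils, 7.33 to 13.25 in SMP, 7.30 and 7.57 in neutrophils, 3.71 in GMP and 6.08 in MDP. In cMoP it read 2.40 to 4.59 apart from 10.32 on cMoP 1, and 11.88 to 14.27 on the 4 marrow panel arrays. In basophils 1 and 2, Kel stood at 7.40 and 6.48, Rhd at 6.26 and 4.59, Epb42 at 6.46 and 3.74 and Rhag at 5.04 and 3.54. In eosinophils Rhag was at the floor and Kel at 2.31 and 2.80. The part of red cell RNA in the Slc4a1, Alas2 and Klf1 differences was not tested.
Of 12 platelet markers 10 were measured, with sums of 46.3 and 49.8 in eosinophils, 44.0 and 46.8 in neutrophils, 32.0 and 38.8 in basophils, 31.8 to 41.5 in SMP, 29.0 to 31.1 in cMoP, 29.9 in GMP and 30.5 in MDP. Gp5 and Gp6 were at the floor on every array of the first set, Ppbp stood at 4.16 and 5.19 in eosinophils and at 5.03 on SMP 2, and Itgb3 at 10.61 and 10.28 in eosinophils, 9.71 to 10.31 in SMP, 8.80 and 8.05 in basophils and 9.41 and 9.70 in neutrophils. Itgb3 thus differed far less between the sorts than its partner Itga2b did. The part of platelets in the Pf4 and Itga2b levels was not tested.

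**Figure D4:**
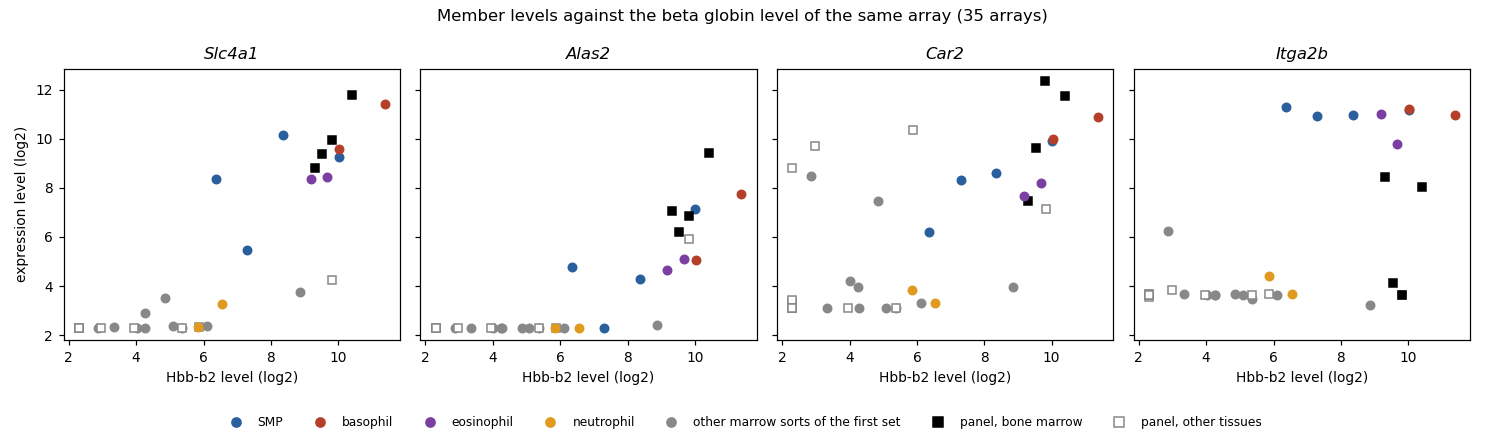
Each point is 1 of 35 arrays, with its Hbb-b2 log2 level on the x axis and the log2 level of Slc4a1, Alas2, Car2 or Itga2b on the y axis. The highest Slc4a1 and Alas2 levels lie on arrays with high Hbb-b2, with exceptions such as SMP 2 (Slc4a1 8.35, Hbb-b2 6.36) and cMoP 1 (3.75 and 8.86). The 4 SMP arrays hold Itga2b between 10.92 and 11.30 while their Hbb-b2 runs from 6.36 to 10.01.

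The genes whose pattern was most like each member's were found by Pearson's r over the 24 profiles, among 12867 genes. Itga2b was nearest to Gata1 (r = 0.96), Tfr2 (0.95) and Spns2 (0.95). Gata1 stood at 8.80, 9.39, 8.60 and 6.97 on the SMP arrays, 9.79 and 9.44 in basophils, 10.99 and 11.00 in eosinophils, 4.46 in GMP, 3.08 in MDP and at most 2.38 in cMoP and neutrophils. SMP, basophils and eosinophils thus stand apart from the other first-set sorts in both genes.
Slc4a1 was nearest to Apol11b (0.97), Hemgn (0.95) and Ces2g (0.91), and Alas2 to Apol11b (0.95), Aqp1 (0.89) and Hbb-b2 (0.87). Klf1, over the floor in 6 profiles, was nearest to the blood group gene Kel, to Pdzk1ip1 (0.99) and to Rhd (0.95), another blood group gene. For Car1 these were Hemgn (0.87), Pklr (0.86, the red cell pyruvate kinase) and Ermap (0.85), and for Car2 F2r (0.89), Nkg7 (0.84, a granule protein of NK cells) and Enpp4 (0.83). Epor, over the floor in 4 profiles, was nearest to Col14a1, Mrap and Vstm4 (0.99 each), a likeness that rests on the 2 M2-like macrophage arrays. Pf4 had no close partner, with Pmp22 at 0.69, Cavin2 at 0.68 and Myct1 at 0.67.
Between the members, r over the same profiles was 0.94 for Slc4a1 with Alas2, 0.78 for Slc4a1 with Klf1, 0.72 for Slc4a1 with Itga2b and 0.31 for Slc4a1 with Pf4.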

How the data were processed

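RNA of sorted mouse cells was measured on 35 arrays with 45101 probe sets. The deposited values are log2 levels per probe set, made by the authors with a background correction and normalization not given in the sources used here. Base 2 was inferred from the range (highest value 16.02), and between 46.5% and 49.5% of each array's values lay at the floor. The 34945 probe sets with 1 symbol gave 18193 genes, each taken from the probe set whose mean over all arrays was highest. Probe sets with several symbols (932) or none (9160) were left out.

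Differences were fitted in limma 3.58.1 (R 4.3.3; lmFit, eBayes with a trend), over 20 arrays and 12077 genes for the first set, with a term for the WT-titled arrays, and over 15 arrays and 11732 genes for the tissue panel, with terms for sort and tissue. Genes needed at least 2 arrays over the array's median. The fits were tested on simulated data. All 8 genes were named, and of each list up to 4 called genes with the largest difference per comparison, beside a few fixed genes and the 3 most alike. The genes, lists and tests were chosen with earlier results of these data known. Sequences are RefSeq's (GRCm38.p6). Alternatives were quantile normalization, no filter, other uses of probe sets, other sample sets, no fold threshold, a replicate block and leaving out each array.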

Additional observations from a re-analysis of the deposited data

Results flagged for a closer look

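In groups of 4 arrays, here cMoP and SMP, the gap between 1 array and the rest was compared with the range of the group by Dixon's test. In all cases but Itga2b the other 3 arrays were at the floor, which fixes the outcome, so those cases are descriptions. Chance passes the test in about 1 of 20 groups without such ties. Array cMoP 1 stood apart in 3 cases: it was the highest in Alas2 (2.41, range 0.11) and in the other responsive probe set of Slc4a1 (2.42, range 0.13), and the lowest in Itga2b (3.21, range 0.46). This array also had the highest Hbb-b2 of its group, at 8.86. Pf4 was over the floor on 1 SMP array, SMP 2, at 2.91 (range 0.61), where Ppbp stood at 5.03. The dim probe set of Slc4a1 had its highest SMP value, 2.30, on SMP 1, a range of 0.01 that lies at the floor.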

How the results depend on the processing

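Of 554 member values under the alternatives, 506 stayed on their side of the threshold, 35 lost a call and 13 gained one. None turned its direction in a called result, but several alternatives could not have turned one. No filter, no fold threshold and every probe set by itself leave a member's log2 difference as it was. In the first set, so do the compared groups alone, the replicate block and the fit without the WT term. The mean of probe sets can change only Slc4a1. Members called for eosinophils minus basophils fell from 4 to 2 with no filter and with the compared groups alone, and to 2 to 3 on leaving out 1 array. For SMP minus basophils the count was 0 with the compared groups alone and 1 to 4 on leaving out 1 array. For GMP minus cMoP it was 2 with the compared groups alone, where Car1 and Pf4 did not pass the filter and were not tested, as in MDP minus cMoP. For MDP minus cMoP it was 1 under quantile normalization, 1 with no filter, 0 with the compared groups alone (limma called 78 genes there, with 1585 at an unadjusted p under 0.05) and 1 to 2 on leaving out 1 array. For SatM minus SMP it ran from 3 to 5 on leaving out 1 array. On leaving out 1 array the other counts ran from 4 to 5 (SMP minus cMoP), 5 to 7 (basophils minus neutrophils), 4 to 5 (eosinophils minus neutrophils) and 2 to 3 (panel marrow minus spleen). The cause of these moves was not tested, beyond the smaller number of arrays in the fits of the compared groups alone.

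Counts over all genes moved by over 1.5 times in these cases. SMP minus basophils called 1391 genes, 41 with the compared groups alone, 524 without the WT term and 492 to 2113 on leaving out 1 array. GMP minus cMoP called 921 and 348 alone, MDP minus cMoP 305 and 78 alone, SatM minus SMP 3457 and 2139 alone, and eosinophils minus basophils 2493 and 1529 without eosinophil 2. Panel marrow minus spleen called 11 genes, 5 with no filter and 316 without the marrow Msr1- Ceacam1- array, and panel blood minus spleen 4, with 0 to 17 under the alternatives. With every probe set by itself, which tests more features, the calls were 7129 against 4285 genes for SMP minus cMoP, 7416 against 4519 for basophils and 8059 against 4895 for eosinophils minus neutrophils, 3976 for eosinophils minus basophils, 2295 for SMP minus basophils and 5658 for SatM minus SMP.

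The titles number the replicates. Within the numbered SMP and cMoP arrays, same-numbered arrays deviated together only weakly (r = 0.06), as in the WT-titled ones (0.23), the granulocytes (0.10 to 0.16) and the monocytes (-0.05), so the numbers were not taken as pairs. Measured from the means of all 4 arrays, which leaves the difference between the title sets in, r was 0.23 to 0.36 for SMP with cMoP. With the replicate number as a block, the counts of members called were 5 (SMP minus cMoP), 6 (basophils minus neutrophils), 5 (eosinophils minus neutrophils), 4 (eosinophils minus basophils), 3 (SMP minus basophils), 4 (GMP minus cMoP), 2 (MDP minus cMoP) and 3 (SatM minus SMP). In MDP minus cMoP, the block ended the Pf4 call (adjusted p = 0.125) and made one of Car2 (adjusted p = 0.0267). It also ended the Alas2 call in eosinophils minus neutrophils (adjusted p = 0.0588) and made one of Car2 in SMP minus basophils (adjusted p = 0.025). No block was possible in the panel, which has 1 array per sort and tissue.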
